A study of Mus musculus with 15 samples.

Results

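The genes described here encode the proteins of the cytosolic ribosome and were followed in the colon of mice fed heme, the iron-containing pigment of red meat. Members were picked by symbol, and the family itself was chosen with earlier results of these data known. A gene was taken when its single annotated symbol was Rpl or Rps followed by a number with an optional letter, Rplp0, Rplp1, Rplp2 or Rpsa, and S6 kinases and pseudogene symbols were left out. The rule found 46 genes among the 18194 genes with an unambiguous probe set, 24 of the large subunit and 22 of the small subunit. Where a gene had several probe sets, the one brightest on average across the 15 arrays was used. Of the 46 genes, 42 had a signal above 20 (4.32 on the log2 scale) on at least 6 arrays and were tested, 22 of the large and 20 of the small subunit. For the other 4, Rpl39l, Rpl3l, Rps16 and Rps27, the one-symbol probe set lay under this floor in every mouse of both groups. For Rps16 and Rps27, brighter probe sets exist that list further symbols. No tested gene was under the floor in any mouse. Symbols such as Rps3a1, which carry a second number, fall outside the rule.

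A cytosolic ribosome joins a small subunit, which binds the mRNA and decodes it, to a large subunit, which forms the peptide bond. The proteins of both subunits are made in matched amounts and assembled with ribosomal RNA in the nucleolus. Their mRNAs are among the most abundant of a cell and share a terminal oligopyrimidine (TOP) stretch at the start, which places their translation under the control of the kinase mTOR and of the RNA-binding protein Larp1. The colon epithelium renews itself continually from dividing crypt cells, which need new ribosomes for growth.

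Expression was measured in scrapings of the opened colon, with 1 array per mouse and no pooling. The 9 heme mice were male C57BL/6 mice, 11 weeks old, that ate a high-fat, low-calcium diet (40% of energy as fat) with 0.5 µmol/g heme for 14 days. The 6 control mice were males of the same strain and age on the same high-fat, low-calcium diet without heme for 14 days. Control mouse 5 is not analysed here. The comparison asks what heme changed on top of a diet that both groups ate. All levels below are log2 expression values, and all changes are heme minus control on that scale.

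The median of all probe sets on an array lay between 3.11 and 3.24, and 9066 to 9319 genes per array were above the floor. Epithelial markers had mean levels of 13.21 to 13.39 in heme mice and 13.23 to 13.33 in control mice, so the labelled tissue carried its defining genes. Of these 11 markers, 3 were higher and 2 lower with heme. Goblet cell markers had mean levels of 13.49 to 13.71 in heme mice and 13.73 to 14.11 in control mice, and 4 of 5 were lower. Of the 9 smooth muscle markers, 5 were tested and all 5 were lower with heme, and their mean level ran between 5.88 and 7.27 in heme mice and between 6.99 and 9.95 in control mice. Control mouse 2 stood apart with the highest smooth muscle and leukocyte scores (9.95 and 10.4), and control mouse 4 with a score of 3.19 for genes of the distal colon. All 9 proliferation markers on the array were higher with heme, with mean levels of 9.47 to 9.90 in heme mice and 8.21 to 8.81 in control mice. In a bulk scraping, fewer cells of a type and less RNA per cell cannot be told apart. The difference between 3′ and 5′ control probe sets, a sign of RNA integrity, was -0.11 ± 0.03 in heme mice and -0.06 ± 0.06 in control mice for Gapdh (SD, n = 9 and 6, exact permutation p = 0.0645). For beta-actin it was 0.57 ± 0.07 in heme mice and 0.62 ± 0.07 in control mice (exact permutation p = 0.175).

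Ribosomal protein mRNAs were slightly lower with heme. Of the 42 tested genes 20 were lower (47.6%) and 2 were higher at the adjusted threshold of 0.05 (limma with Benjamini-Hochberg adjustment across 9257 genes), and 20 were not called. Of all tested genes, 26.4% were called lower and 27.2% higher, 53.6% together. The fitted change lay below 0 in 35 of the 42 genes, against 50.6% of all tested genes. The median change was -0.11, or -7.22%, against -0.01 for all tested genes. In 6 of the 42 genes, every heme mouse lay below every control mouse, a pattern shown by 8.93% of all tested genes. The count of lower genes was sensitive to the processing although the median stayed below 0. It was 12 without control mouse 6, 13 without control mouse 3 or 7, and 6 when each array was centred on its median. Adjusting for the smooth muscle score left 4, and without control mice 2 and 4 and heme mouse 6 it was 15. The count rose to 27 with a trend and robust variance model, and to 33 with arrays centred on other bright genes. The proliferation score did not overlap between the groups, and a fit adjusted for it made 9 higher and 4 lower calls among all tested genes and 0 among the 42 (limma, also 0 at an unadjusted p under 0.05).

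**Figure D1:**
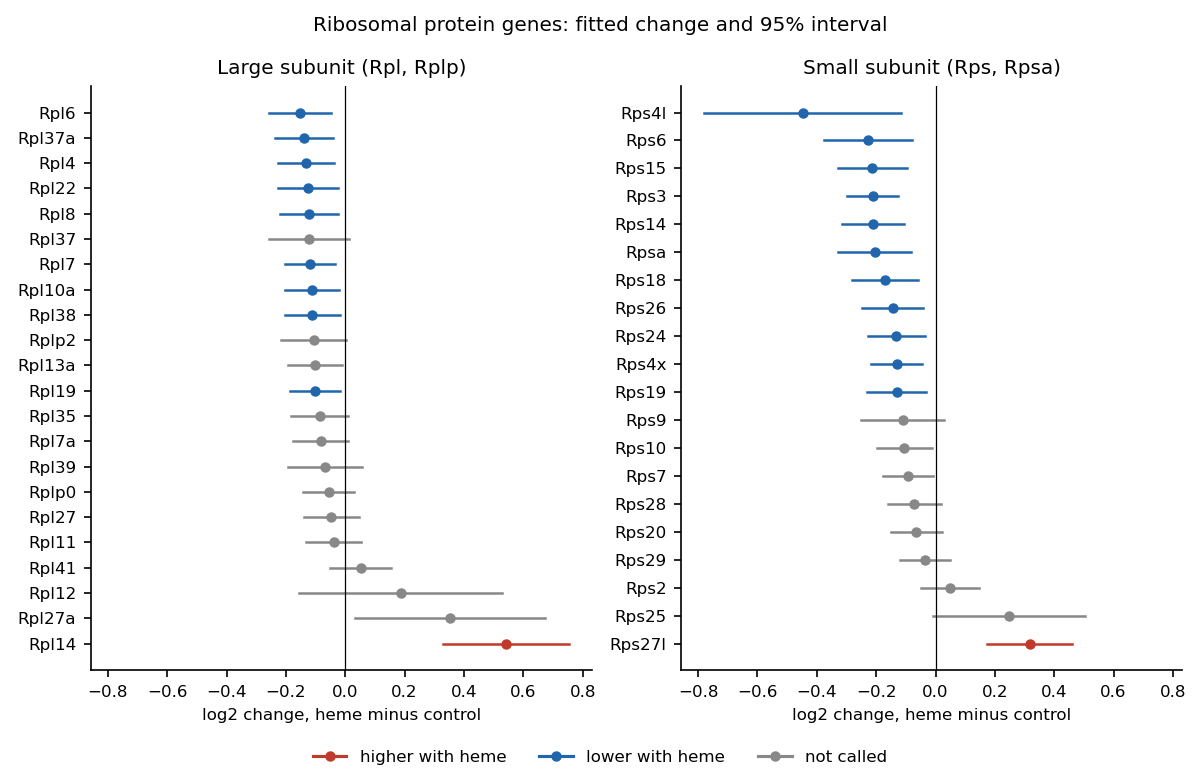
Fitted log2 change, heme minus control, of the 22 large subunit genes (left panel) and the 20 small subunit genes (right panel) tested, with bars for the 95% interval from limma and n = 9 heme and 6 control mice. Most points sit a little left of 0, between -0.23 and -0.04, Rpl14 and Rps27l are the 2 called to the right, and the widest intervals belong to dimly measured genes such as Rps4l and Rpl12.

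**Figure D2:**
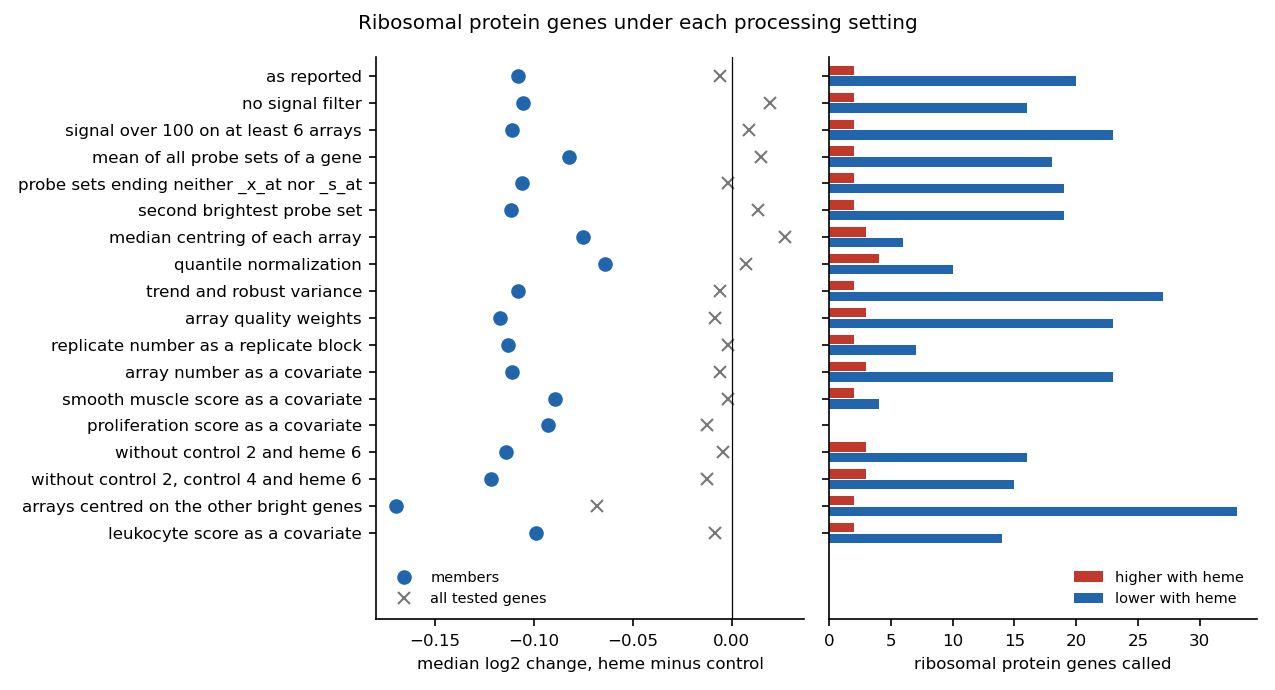
Median log2 change, heme minus control, of the ribosomal protein genes (blue points) and of all tested genes (crosses) under each processing setting (left panel), beside the number of ribosomal protein genes called higher (red) and lower (blue) in the same setting (right panel). The medians of the family stay between -0.17 and -0.06, while the lower calls range between 0 and 33.

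The genes were measured close to the top of the scale and with little scatter. Their median level was 13.4, against 8.32 for all tested genes. The median residual standard deviation was 0.06 for the 42 genes and 0.18 for all tested genes, so that changes near 0.11 could pass the test. The 34 genes with a mean over 12 held 18 of the lower calls and 1 of the higher calls, with a median change of -0.11. Of 375 other genes with a mean over 12, 22.7% were lower and 43.5% were higher, with a median change of 0.09, but their median level of 12.6 was below the 13.6 of the 34 genes. At a matched level, the 21 ribosomal protein genes above the family's own median level had a median change of -0.11, and 11 were lower and 0 higher (limma), with 21 of 21 fitted below 0. The 56 other genes above that level had a median change of 0.06, and 17 were lower and 23 higher. Both sets had a median level of 13.85. The remaining 8 ribosomal protein genes, with means up to 12, had 2 lower and 1 higher call and a median change of 0.06.

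**Figure D3:**
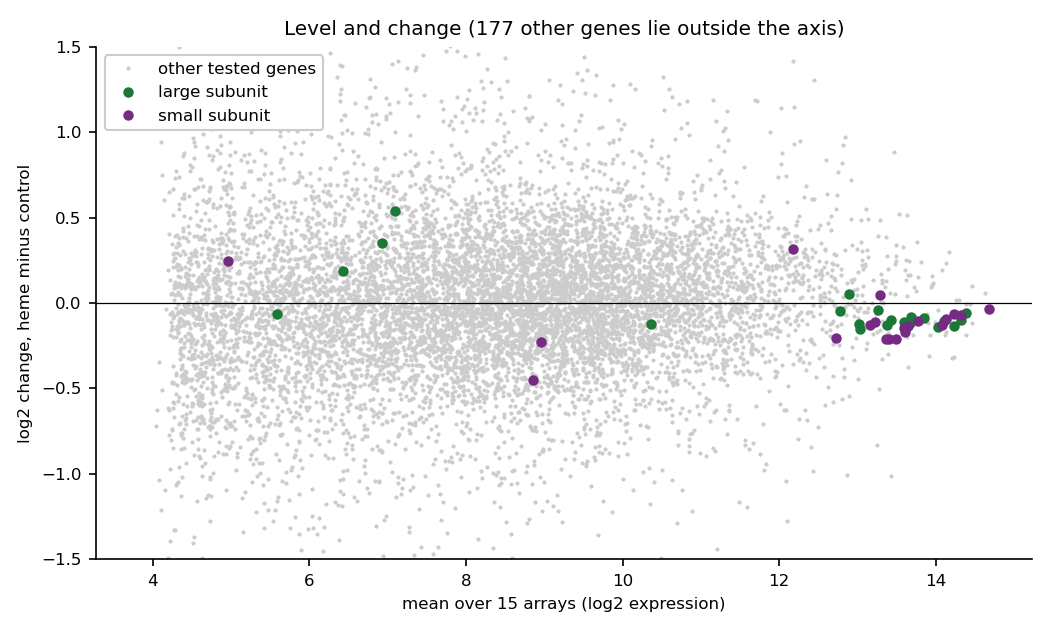
Change with heme (log2, heme minus control, vertical axis) against mean level over the 15 arrays (log2 expression, horizontal axis) for each tested gene, with large subunit genes in green, small subunit genes in purple and other genes in grey. Of the 34 ribosomal protein genes over 12, 31 lie below 0, in a tight group, and Rps27l stands apart at 0.32. The 8 dimmer ones are spread between -0.45 and 0.54, and 177 other genes lie beyond the vertical axis.

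Averaged over the 34 bright genes, the level ran between 13.50 and 13.62 in heme mice, with a median of 13.55. In control mice it ran between 13.61 and 13.68, with a median of 13.66. The groups overlapped only narrowly, since heme mouse 8, at 13.62, lay above control mice 1 (13.61) and 4 (13.62). The mean over the 375 other bright genes went the other way, with 12.76 to 12.81 in heme mice and 12.68 to 12.73 in control mice.

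In the small subunit, 11 of 20 genes were lower (55%, against 26.4% of all tested genes) and 1 was higher (5%, against 27.2%). Its median change was -0.13. The mean over the tested small subunit genes was 12.59 to 12.71 in heme mice and 12.71 to 12.78 in control mice. These groups overlapped narrowly, since heme mouse 8 (12.714) lay above control mouse 4 (12.711). In the large subunit, 9 of 22 genes were lower (40.9%) and 1 was higher (4.55%), with a median change of -0.10. The large subunit means overlapped more widely, at 12.11 to 12.24 in heme mice and 12.13 to 12.25 in control mice. Part of this contrast came from the dim genes. Among genes with a mean over 12, 9 of 17 small subunit genes and 9 of 17 large subunit genes were lower, with medians of -0.13 and -0.11. Of the 6 genes whose groups did not overlap on the lower side, 5 belonged to the small subunit and 1, Rpl19, to the large. These were 25% and 4.55% of the tested genes of each subunit, against 8.93% of all tested genes. The single higher call of the large subunit became 2 without control mouse 2, 3 or 4 or heme mouse 9, and that of the small subunit became 2 without control mouse 1 or heme mouse 6. The difference between the subunits was not tested.

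Rps3, which lines the entry of the mRNA channel on the small subunit and also acts in DNA repair, had a clear separation of the groups. It lay at 13.19, 13.27 and 13.37 (lowest, median, highest) in heme mice and at 13.46, 13.49 and 13.53 in control mice. All 9 heme mice were below all 6 control mice, with a change of -0.21 ± 0.04 (SE), or -13.6%, and an adjusted p of 0.000462 (limma). A dimmer probe set of Rps3, with a mean of 6.59, had a change of 0.13 ± 0.11 and was not called. Rps15, a protein of the head of the small subunit, lay at 13.12, 13.33 and 13.45 in heme mice and at 13.46, 13.52 and 13.64 in control mice. Its groups did not overlap either, and the change was -0.21 ± 0.05 (adjusted p = 0.004, limma). Rps14, a protein of the platform whose loss in humans causes the anaemia of the 5q- syndrome, lay at 13.28, 13.42 and 13.53 in heme mice and at 13.57, 13.61 and 13.66 in control mice. Again every heme mouse was below every control mouse, and the change was -0.21 ± 0.05 (adjusted p = 0.00218, limma).

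Rpsa, a small subunit protein also known as the laminin receptor precursor, lay at 12.45, 12.65 and 12.84 in heme mice and at 12.79, 12.85 and 12.96 in control mice. In 8 of 9 heme mice it was below every control mouse, with a change of -0.20 ± 0.06 (adjusted p = 0.00778, limma). Rps18, another protein of the small subunit head, lay at 13.42, 13.56 and 13.64 in heme mice and at 13.62, 13.69 and 13.82 in control mice. The groups touched at one heme mouse, and the change was -0.17 ± 0.05 (adjusted p = 0.0128, limma). These 5 genes and Rps6 stayed lower when any 1 mouse was left out. In a fit adjusted for the smooth muscle score, Rps3 kept its call at -0.23 (adjusted p = 0.0144, limma). Rps14 had a change of -0.20 in that fit with an adjusted p of 0.0709, and Rps15, Rpsa and Rps18 had changes of -0.16, -0.17 and -0.16 with adjusted p of 0.156, 0.177 and 0.147.

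**Figure D4:**
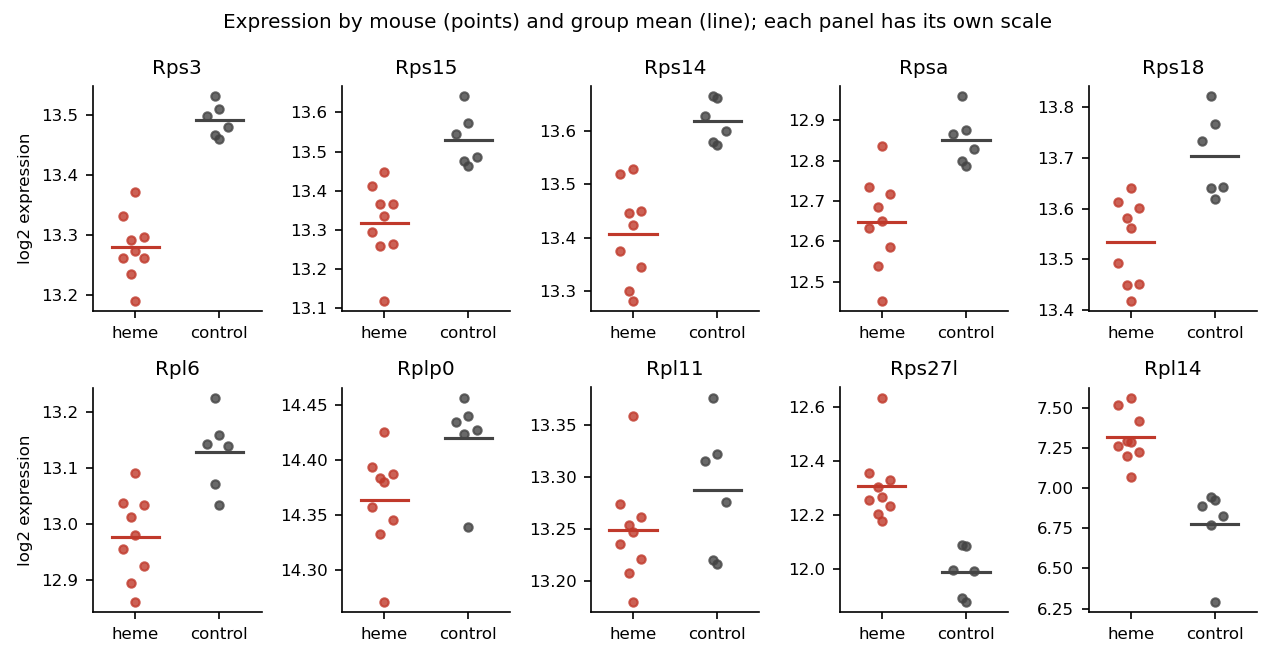
Log2 expression of 10 ribosomal protein genes in each heme mouse (red, left) and control mouse (grey, right), with lines at the group means and a separate vertical scale in each panel. Rps3, Rps15 and Rps14 show 9 heme points below all 6 control points, Rplp0 and Rpl11 overlap widely, and Rps27l and Rpl14 are reversed with all heme points on top.

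Rps6, the substrate of the S6 kinases downstream of mTOR, was measured by a dimmer probe set than the genes above. It lay at 8.65, 8.89 and 8.97 in heme mice and at 8.87, 9.13 and 9.30 in control mice. Only 4 of 9 heme mice were below every control mouse, and the change was -0.23 ± 0.07 (adjusted p = 0.0121, limma). With the mean of its probe sets the change was -0.08, and with the smooth muscle covariate it was -0.11, with adjusted p of 0.185 and 0.444 (limma). That mean includes a probe set under the floor, with a mean of 2.05. Probe sets that list Rps6 beside others, with means of 14.4, 13.9, 13.9 and 12.4, had changes of -0.11, -0.06, -0.13 and -0.35. Those at -0.13 and -0.35 were called lower. Dimmer ones over the floor had changes between -0.07 and 0.05, none of them called.

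Rps24 and Rps19, both mutated in the human disorder Diamond-Blackfan anaemia, showed smaller differences. Rps24 lay at 13.52, 13.60 and 13.66 in heme mice and at 13.65, 13.73 and 13.81 in control mice, a change of -0.13 ± 0.05 (adjusted p = 0.0214, limma). Rps19 lay at 12.99, 13.13 and 13.19 in heme mice and at 13.17, 13.24 and 13.31 in control mice, a change of -0.13 ± 0.05 (adjusted p = 0.0269, limma). In both genes 7 of 9 heme mice were below every control mouse. The Rps24 call was lost without control mouse 6 or 7, and that of Rps19 without control mouse 2, 3 or 6. Rps26 and Rps4x had changes of -0.14 and -0.13, and in each all 9 heme mice were below all control mice.

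Rps4l, a gene closely related to the X-linked Rps4x, had the lowest fitted change of the 42 genes and a wide spread. It lay at 7.98, 8.68 and 9.05 in heme mice and at 8.59, 9.14 and 9.45 in control mice. The change was -0.45 ± 0.16 (adjusted p = 0.0243, limma), but only 2 heme mice were below every control mouse. Without control mouse 3 or 4 it was not called, at -0.38 and -0.39 with adjusted p of 0.0624 and 0.0575.

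Among the large subunit genes, Rpl6 had the lowest fitted change. It lay at 12.86, 12.98 and 13.09 in heme mice and at 13.03, 13.14 and 13.23 in control mice. In 7 of 9 heme mice it was below every control mouse, with a change of -0.15 ± 0.05 (adjusted p = 0.0157, limma). The other called large subunit genes were Rpl37a, Rpl4, Rpl22, Rpl8, Rpl7, Rpl10a, Rpl38 and Rpl19, with changes between -0.14 and -0.10. Rpl4 reaches into the tunnel through which the new peptide leaves. Of these 9 genes, only Rpl6 and Rpl7 stayed lower whichever mouse was left out. The count of lower large subunit genes, 9 as reported, was 3 without control mouse 6. With median centring of the arrays it was 0 (limma), and 1 at an unadjusted p under 0.05. It was 4 without heme mouse 1 or 2 or control mouse 3 or 7, and 5 without control mouse 2.

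Rpl22, a large subunit protein that general translation does not need and that T cell development does in mice, was measured by 3 probe sets. The brightest lay at 13.21, 13.35 and 13.43 in heme mice and at 13.38, 13.46 and 13.51 in control mice, a change of -0.13 ± 0.05 (adjusted p = 0.0338, limma). A second had a change of -0.17 ± 0.05. The third and dimmest lay at 7.74, 8.24 and 8.70 in heme mice and at 9.13, 9.35 and 9.58 in control mice. Its groups were far apart, and its change of -1.12 ± 0.13 was the lowest of any probe set of these genes. Which Rpl22 transcripts each probe set detects was not examined.

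Of the stalk proteins, which recruit elongation factors to the large subunit, Rplp0 and Rplp2 were tested and did not pass. Rplp1 had no one-symbol probe set. A probe set with a mean of 13.8 that lists Rplp1 beside others had a change of -0.13 ± 0.05. It was called lower (adjusted p = 0.0486, limma) but cannot be assigned to 1 gene. Rplp0, the base of the stalk and a common reference gene in PCR, lay at 14.27, 14.38 and 14.43 in heme mice and at 14.34, 14.43 and 14.46 in control mice. The ranges overlapped, and the change was -0.06 ± 0.04, with a 95% interval of -0.14 to 0.03 (adjusted p = 0.251, limma). Rplp2 lay at 13.96, 14.06 and 14.27 in heme mice and at 14.11, 14.17 and 14.24 in control mice, a change of -0.11 ± 0.05 (adjusted p = 0.0961, limma). Without heme mouse 9 it was called lower, at -0.13 with an adjusted p of 0.0218. Rpl11, which with 5S RNA can bind Mdm2 and so release p53, lay at 13.18, 13.25 and 13.36 in heme mice and at 13.22, 13.30 and 13.38 in control mice. These ranges overlapped almost entirely, and the change of -0.04 ± 0.04 was not called (adjusted p = 0.469, limma).

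Rps27l was called higher. This variant of Rps27 is a known p53 target. It lay at 12.18, 12.27 and 12.63 in heme mice and at 11.88, 11.99 and 12.09 in control mice. Every heme mouse was above every control mouse, as in 11.2% of all tested genes, and the change was 0.32 ± 0.07, or 24.6% (adjusted p = 0.001, limma). Its 3 probe sets had changes of 0.30 to 0.36. The call held when any 1 mouse was left out and with the smooth muscle covariate, where the change was 0.42 (adjusted p = 0.00716, limma). Rps27 itself had a one-symbol probe set under the floor, with medians of 2.86 in heme mice and 3.06 in control mice, and was not tested. A bright probe set that lists Rps27 beside further symbols, and so cannot be assigned to 1 gene, had a mean of 13.8 and a change of -0.28 ± 0.06. Its groups did not overlap (adjusted p = 0.00143, limma).

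Rpl14, a large subunit protein, was the other gene called higher, on a dim probe set. It lay at 7.07, 7.29 and 7.56 in heme mice and at 6.29, 6.86 and 6.95 in control mice. The groups did not overlap, and the change was 0.54 ± 0.10 (adjusted p = 0.000341, limma). Another 5 probe sets, which list Rpl14 beside further symbols and so cannot be assigned to 1 gene, had means over 12 and changes of -0.19 to -0.08, and 3 of them were called lower. The direction given for Rpl14 therefore rests on 1 dim probe set.

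The dim genes Rpl27a, Rps25 and Rpl12 had changes of 0.35, 0.25 and 0.19, none of them called. Bright probe sets that list these symbols beside others had changes of -0.09 for Rpl27a, -0.08 for Rps25, and -0.15 and -0.01 for Rpl12, and only the one at -0.15 was called. Rpl39, at the end of the exit tunnel, lay between 5.46 and 5.70 in heme mice and between 5.45 and 5.75 in control mice, a change of -0.07 ± 0.06 (adjusted p = 0.353, limma). A probe set with a mean of 14.3 that lists Rpl39 beside others had a change of -0.02 ± 0.05. Rpl39l and Rpl3l, the testis and muscle variants of Rpl39 and Rpl3, had highest values of 2.27 and 2.67 in heme mice and 2.16 and 2.55 in control mice, all under the floor. The one-symbol probe set of Rps16, of the small subunit, was also under the floor in every mouse. Probe sets with means of 14.5 and 13.4 that list Rps16 beside others had changes of -0.01 ± 0.04 and -0.11 ± 0.04, and the second was called lower (adjusted p = 0.044, limma).

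For 19 genes, several probe sets were above the floor. In 13 of these all changes were below 0, in 1, Rps27l, all were above 0, and in 5, Rpl13a, Rpl27, Rpl41, Rps3 and Rps9, both signs occurred. In Rpl13a the changes ran between -0.13 and 0.28. Probe sets that list a ribosomal protein symbol beside pseudogenes or other genes were kept out of the gene counts. Of 93 such probe sets over the floor, 49 were lower (52.7%) and 3 were higher, with a median change of -0.13, against 26% lower and 24.9% higher among all 17910 probe sets fitted. They cover 26 ribosomal protein symbols that have no probe set of their own, among them Rplp1, Rpl3, Rpl5 and Rpl10. Except for Rplp1, these symbols are given only as a group.

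The start sites of these genes were read from RefSeq (build GRCm38.p6) to show the TOP stretch that ties the family to mTOR and Larp1. The windows below run from 10 bases before to 20 bases after an annotated start, on the gene's own strand. Capitals mark a run made of a C followed by at least 4 further C or T bases that begins within 5 bases of the start. The first 5 genes were chosen as examples with a run, 4 of them lower with heme and 1, Rps27l, higher. The last 2, Rps3 and Rps15, were among the genes with separated groups and have no such run at this start.
Rps6 (chr4:86857348-86857377, minus strand): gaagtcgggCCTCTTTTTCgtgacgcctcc
Rps18 (chr17:33955646-33955675, minus strand): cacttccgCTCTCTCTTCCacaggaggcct
Rps24 (chr14:24490668-24490697, plus strand): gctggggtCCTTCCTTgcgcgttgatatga
Rpl38 (chr11:114668570-114668599, plus strand): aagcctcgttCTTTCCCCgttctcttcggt
Rps27l (chr9:66946076-66946105, plus strand): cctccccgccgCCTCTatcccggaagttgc
Rps3 (chr7:99483690-99483719, minus strand): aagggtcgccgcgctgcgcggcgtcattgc
Rps15 (chr10:80292421-80292450, plus strand): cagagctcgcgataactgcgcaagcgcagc

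Of the 46 genes, 40 had an annotated start, and 19 of these (47.5%) had such a run at 1 start or more, against 21.2% of 27025 genes with a start. By start, 20 of 48 (41.7%) had a run, against 18.3% of all 32851 starts. The run was found in 6 of 16 genes called lower and in 10 of 18 genes not called. Only the sense strand was searched, and the letters describe the annotated start, which need not be the start used in the colon.

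Other genes of the translation machinery were counted from lists chosen by function. Fau, whose product is processed to a small subunit protein, was lower, at 13.06, 13.12 and 13.19 in heme mice and 13.26, 13.29 and 13.38 in control mice (-0.18 ± 0.04, adjusted p = 0.00189, limma). The paralogues Rpl7l1 and Rpl22l1 had changes of 0.29 and 0.06, and Rpl7l1, the one called, lost its call in 11 of the 15 fits that left out a mouse. Of 19 tested genes for elongation factors and other TOP RNAs, 13 were lower (68.4%, against 26.4% of all tested genes) and 1, Nap1l1, was higher, with a median change of -0.23. In 10 of the 19 (52.6%, against 8.93%), every heme mouse lay below every control mouse. Eef1a1, which brings tRNAs to the ribosome, had a change of -0.09 ± 0.04, Eef2, which moves the ribosome along the mRNA, one of -0.23 ± 0.05, and Eif4b, a helper of the initiation helicase, one of -0.43 ± 0.06. The largest falls in this list were in the snoRNA host RNAs Snhg12 and Gas5, with changes of -0.72 ± 0.10 and -0.68 ± 0.09 (adjusted p of 2.2e-05 and 1.32e-05, limma).

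Of 102 tested nucleolar assembly genes, 36 were higher (35.3%, against 27.2% of all tested genes) and 4 lower (3.92%, against 26.4%), with a median change of 0.19, and Rrp12, Lyar and Bysl had the largest rises at 0.94, 0.66 and 0.65. Rrp12 was under the floor in 2 control mice, so the size of its change is uncertain. The abundant nucleolar proteins Ncl and Npm1 were not called, at 0.05 and -0.13. Of 13 tested genes for RNA polymerase I and its factors, which make ribosomal RNA, 1 was higher (Taf1d, 0.23) and 2 were lower (Taf1c, -0.42, and Twistnb, -0.17). These shares, 7.69% and 15.4%, were below the 27.2% and 26.4% of all tested genes. Polr1b and Rrn3 were not called, at 0.18 and 0.24. The Taf1d call was lost without control mouse 2 or 6 and that of Twistnb without control mouse 1 or 6. Initiation factors had 10 higher (35.7%) and 4 lower (14.3%) of 28, with Eif4e, the cap-binding protein, at 0.45, Eif3b at 0.36 and Eif4a2 at -0.43. The initiation factors Eif3e, Eif3f, Eif3h and Eif4b were counted with the other TOP RNAs instead. All of them were called lower, at -0.29, -0.36, -0.34 and -0.43, so the counts of both lists depend on how they were divided. Of 28 tested regulators around mTOR, Larp1 and Myc, 9 were higher (32.1%) and 7 lower (25%), with a median change of -0.02. The largest changes were in Akt1s1, an inhibitory partner of mTOR, at 1.69 ± 0.39, in Eif4ebp1, the inhibitor of Eif4e that mTOR switches off, at 1.43 ± 0.13, and in Ddit4, a stress-induced mTOR inhibitor, at 1.15 ± 0.28. Akt1s1 was under the floor in 1 control mouse, and in the fit adjusted for smooth muscle Akt1s1 and Ddit4 were not called (adjusted p of 0.0618 and 0.0749, limma). The largest fall was in Sesn1, at -0.88, and Mtor, Larp1 and Myc were not called, at -0.06, -0.11 and -0.35.

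The mitochondrial ribosome, encoded by a separate gene family, went the opposite way to the cytosolic one. Of its 76 genes, 63 were higher (82.9%, against 27.2% of all tested genes) and 1, Mrpl24, was lower (1.32%, against 26.4%). The median change was 0.34, beside -0.11 for the cytosolic family. Mrpl54, Mrpl20 and Mrps28 had the largest rises, at 0.84, 0.83 and 0.82. The mean over the 76 genes was 9.58 to 9.84 in heme mice and 9.24 to 9.45 in control mice. Its large and small subunits had 38 of 47 (80.9%) and 25 of 29 genes (86.2%) higher. The difference between the families was not tested as such.

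**Figure D5:**
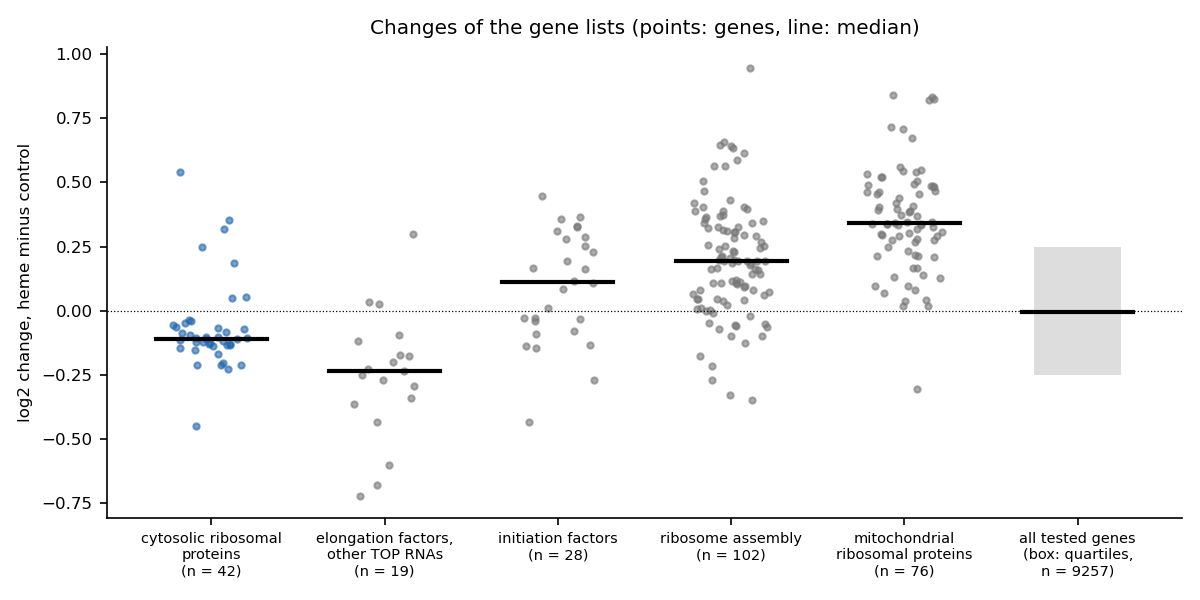
Log2 change with heme (heme minus control) of each tested gene in 5 lists, with a line at the list median and a grey box for the quartiles of all 9257 tested genes (-0.25 and 0.25). Cytosolic ribosomal protein genes cluster just below 0 (median -0.11), with elongation factors and other TOP RNAs lower (-0.23) and assembly factors (0.19) and mitochondrial ribosomal proteins (0.34) above 0. The initiation factors Eif3e, Eif3f, Eif3h and Eif4b are shown with the other TOP RNAs.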

How the data were processed

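Colon scrapings of 15 mice (9 heme, 6 control) were measured on 1 Affymetrix mouse expression array each. Per the submitters' processing notes, the authors used GCRMA 2.22.0, and what they deposited is log2 expression for each probe set. No detection calls were used, and the number of arrays limits the precision. No column of another sample was used.

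The array annotation gave 1 symbol for 34958 of 45101 probe sets and several for 932, and 9211 were absent from it. Genes were tested where the signal was above 20 on at least 6 arrays (9257 genes). The comparison of heme and control used lmFit and eBayes of limma 3.58.1 (R 4.3.3), with Benjamini-Hochberg adjustment over all tested genes and a threshold of 0.05. Probe sets were also fitted one by one. The fit was tested on simulated data. RNA integrity used an exact two-sided permutation test over 5005 splits. Start sites came from RefSeq tables (GRCm38.p6). P-values measure the spread between mice, and limma draws the variance of each gene toward a value shared by all tested genes.

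The members and gene lists were chosen with earlier results of these data known, so lists are described by counts and medians without a test. Named were the 8 members with the largest called rise and the 8 with the largest called fall (all where fewer), a set chosen by function, untested members, and the 3 largest called changes of each list. Among the names in these sets, Rplp1, Rpl3, Rpl5, Rpl10, Rpl36a, Rps27a, Gnb2l1, Rack1 and Rps6kb1 had no one-symbol probe set. Other genes named, and single mice, were picked after their values were seen. Alternatives covered filters, probe set choice, scaling, variance model, covariates and samples left out. Centring on other bright genes and the leukocyte covariate, and the comparison with other genes at a matched level, were added after seeing the data.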

Additional observations from a re-analysis of the deposited data

Results flagged for a closer look

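Outlying mice were looked for in 36 groups, the heme and control groups of each named and tested member and of the mean over the 42 tested members, with Dixon's test at its 95% critical value, which by chance picks out about 5% of groups. It picked out 3. For Rpl14, control mouse 1 had a level of 6.29, below the control median of 6.86, and the other control mice were closer together. For Rps27l, heme mouse 9 had a level of 12.6, above the heme median of 12.3. For Rplp0, control mouse 1 had a level of 14.34, below the control median of 14.43. The calls for Rpl14 and Rps27l held without these mice, and Rplp0 was not called with or without control mouse 1.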

How the results depend on the processing

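The median change of the ribosomal protein genes was below 0 in every setting run, between -0.17 and -0.06, whereas the counts of calls moved. Lower calls numbered 20 as reported, 10 with quantile normalization, 6 with median centring, 4 with the smooth muscle covariate, 0 with the proliferation covariate, 33 with arrays centred on other bright genes, and 12 to 21 leaving out single mice. They numbered 27 with trend and robust variance, and 23 with array weights, array number or a signal over 100. Higher calls (2) were 4 with quantile normalization, 0 with the proliferation covariate and 2 to 3 leaving out single mice. The median (-0.11) was -0.064 with quantile normalization and -0.17 with bright-gene centring, and -0.11 to -0.10 leaving out single mice. For the large subunit, lower calls (9) were 4 with no filter, 0 with median centring, 2 with quantile normalization, 1 with smooth muscle, 0 with proliferation, 5 with leukocyte covariate, 16 with bright-gene centring, 4 without control 2 and heme 6, 4 without these and control 4, and 3 to 10 leaving out single mice. Its higher calls (1) were 2 with median centring, quantile normalization, array weights, array number, or without control 2, control 4 and heme 6, 0 with proliferation, and 1 to 2 leaving out single mice. Its median (-0.10) was -0.053 with quantile normalization and -0.16 with bright-gene centring, and -0.11 to -0.09 leaving out single mice. For the small subunit, lower calls (11) were 6 with median centring, 3 with smooth muscle, 0 with proliferation, 17 with bright-gene centring and 9 to 13 leaving out single mice. Its higher calls (1) were 2 with quantile normalization or without control 2 and heme 6, 0 with proliferation, and 1 to 2 leaving out single mice. Its median (-0.13) was -0.094 with the mean of probe sets, -0.093 with proliferation and -0.19 with bright-gene centring, and -0.14 to -0.12 leaving out single mice. The cause of these shifts was not tested. The proliferation score separates the groups completely, and with it limma gave 9 higher and 4 lower calls among all 9257 genes, and 344 and 322 at an unadjusted p under 0.05, with 0 among the 42. Bright-gene centring moved the median of all genes to -0.07 and their calls to 3027 lower and 2031 higher, against 2445 and 2516 as reported. Among the called members, the sign turned only for Rps3, with its second brightest probe set (0.13). The change of Rrp12 turned with the proliferation covariate (-0.17). Several members that were not called also changed sign in some settings, among them Rplp0 and Rpl39 with quantile normalization.

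With the replicate number as a block, lower calls were 7, all in the small subunit (7) and 0 in the large (limma, 4 at an unadjusted p under 0.05). Heme mice 5, 8 and 9, whose numbers no control analysed here has, add nothing to that contrast. The labels do not say that equal numbers share a batch or litter. Deviations of the 6 same-numbered pairs correlated between -0.19 and 0.20, and 1 of 6 matched best with its own number, so the numbers were not taken to pair the mice.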
